A study of Mus musculus with 20 samples.

Results

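The microRNA genes described here are the genes of the array that encode single microRNA hairpins and lie outside the imprinted Dlk1-Dio3 region of mouse chromosome 12. The rule uses annotation and position, and a measured level only to pick among several probe sets of a gene. A probe set, the group of probes that reports 1 transcript, was taken where its platform annotation gave exactly 1 symbol starting with Mir and a digit. Genes within bounds set just inside the start of Dlk1 (position 109452485) and the end of Dio3 (110281097) in assembly GRCm38.p6 were left out. Host transcripts whose symbols end in hg were left out as well. Of 289 such probe sets, 40 lay inside the region and 249 outside it. The 249 represent 247 genes, because Mir713 has 3 probe sets and is represented by the brightest. These 247 genes are members of the 19937 genes with a single symbol on the array. Another 35 probe sets that name several genes, at least 1 of them a microRNA, were left out. The let-7 genes, whose symbols have no digit after Mir, do not fall under this definition.

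Both brain hemispheres of 10 C57/Bl6 mice were profiled on 20 arrays, 1 array per hemisphere. The sample titles do not give the age of the animals. All 10 animals had been sensitised with bacterial lipopolysaccharide (LPS) and then subjected to hypoxia-ischemia (HI), which injured the left hemisphere and left the right uninjured. Of these animals, 5 received no peptide and 5 received IDR1018, a synthetic peptide that modulates innate immunity. The 4 groups of 5 arrays are therefore LPS + HI left, LPS + HI right, LPS + HI with IDR1018 left, and LPS + HI with IDR1018 right. No animal was free of LPS or hypoxia-ischemia, so the right hemisphere is the only reference for injury and carries the systemic effects of both. Dose, timing and the region of tissue within a hemisphere are not given in the sources used here. The arrays numbered 1 to 10 were all left and those numbered 11 to 20 all right, and an effect of array order cannot be told apart from that of hemisphere.

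MicroRNAs are short RNAs that guide Argonaute proteins to messenger RNAs, which are then repressed. A long primary transcript is cut in the nucleus by Drosha and Dgcr8 into a hairpin, Xpo5 exports the hairpin, and Dicer1 trims it to the mature form. Many microRNA genes lie inside longer host genes or in clusters cut from a common primary transcript. Bases 2 to 8 of the mature RNA, the seed, do most of the target recognition, so microRNAs with the same seed are treated as a family. In brain, miR-124, miR-9 and miR-128 are abundant in neurons or their progenitors, miR-219 and miR-338 promote oligodendrocyte maturation, and miR-155, miR-146 and miR-142 belong to innate immune cells. Which form of the RNA the probe sets detect, primary transcript, hairpin or mature, is not given in the sources used here, and the forms cannot be told apart in these values.

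The mature sequences of the 9 members that were lower in the injured hemisphere in both sets of animals are shown first, because they carry the shared result. Sequences are from RefSeq (GRCm38.p6), 5′ to 3′, with the seed in capitals. A single arm is shown for each hairpin, and for Mir421 the 5p arm is the only one in the table used.
miR-421-5p: cUCAUUAAauguuuguugaau
miR-128-3p: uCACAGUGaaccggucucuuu
miR-9-5p: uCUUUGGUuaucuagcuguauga
miR-491-5p: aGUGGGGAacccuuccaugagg
miR-670-5p: aUCCCUGAguguauguggugaa
miR-568: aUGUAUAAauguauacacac
miR-149-5p: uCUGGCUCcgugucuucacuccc
miR-129-5p: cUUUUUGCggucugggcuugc
miR-497a-5p: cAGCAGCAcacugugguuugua

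No seed is shared among these 9 printed arms. Mir128-1 and Mir128-2 both encode the miR-128-3p printed above. The seed of miR-497a-5p is shared by 6 members, the others being Mir15a, Mir15b, Mir16-1, Mir16-2 and Mir195a. The members that were higher in the injured hemisphere come mostly from the Mir17 cluster and its paralogue on the X chromosome. Their sequences show which of them are 1 family. The last sequence, miR-17-5p, is of the same cluster, but Mir17 itself passed in neither set (-0.09 without peptide, 0.01 with IDR1018). Mir367, which was also higher, is printed further below.
miR-18a-5p: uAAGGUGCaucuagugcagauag
miR-19a-3p: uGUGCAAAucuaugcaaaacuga
miR-19b-3p: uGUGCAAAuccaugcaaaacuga
miR-17-5p: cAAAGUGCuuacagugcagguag

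Mir19a, Mir19b-1 and Mir19b-2 share the miR-19 seed, and miR-19b-3p is made from both Mir19b genes. Mir221 and Mir222 are shown because they share a seed and a locus while Mir221 passed the left-right test without peptide and Mir222 did not.
miR-221-3p: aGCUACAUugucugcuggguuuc
miR-222-3p: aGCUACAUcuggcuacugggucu

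Mature sequences were found for 221 of the 247 members, 405 sequences with 311 distinct seeds. Hairpin sequences were found for 210 members (85.0%). By position, 38 members lie on the X chromosome, 118 lie within the span of a RefSeq gene on the same strand (85 of them in a protein-coding gene), and 87 belong to 35 clusters with gaps of at most 10 kb. Exon and intron boundaries were not used here.

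The values are the authors' log2 probe set levels. Levels of the members were low. The median member had a mean level of 6.24 over the 20 arrays, against 8.22 for all 28192 probe sets tested. The range ran from 2.83 for Mir297-1 to 9.88 for Mir692-1. The median of the array's control probe sets lay between 6.68 and 7.01 in the 20 arrays and serves as a guide to background. Of the members, 80 lay above it in all 20 arrays and 146 in none. Levels were higher for hairpins with more guanine and cytosine. Across the 210 members with a sequence Pearson's r was 0.74, a description across genes that share every array. Between arrays, Pearson correlations over the 247 members ran from 0.987 to 0.997. The median member had an SD between animals of 0.096 to 0.108 (log2), depending on the group.

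The first comparison, injured left against uninjured right hemisphere in animals without peptide, asks what the injury changed. Most members that passed the test were lower in the injured hemisphere. Of the 247 members, 25 fell and 1 rose (limma, adjusted p below 0.05 over 28192 probe sets, n = 5 per group). The falls make 10.1% of the members, near the 8.84% of all probe sets tested that fell. The single rise makes 0.405%, where 9.21% of all probe sets rose. Counting direction alone, 182 members (73.7%) had a negative difference, against 55.0% of all probe sets, and the median difference was -0.06 against -0.01. At an unadjusted p below 0.05 there were 56 members, where 31.2% of all probe sets passed. The left and right arrays did not overlap for 18 members in the lower direction, where 7.72% of all probe sets do so, and for 0 in the higher direction, where 7.47% do.

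Several measured quantities of the arrays moved with hemisphere as well. The control probe set median was 6.79 ± 0.06 (SD, n = 5) in the left and 6.91 ± 0.11 in the right hemispheres without peptide. With IDR1018 it was 6.80 ± 0.07 and 6.85 ± 0.06. With the control level of each array in the fit, 8 members fell without peptide and 9 with IDR1018, instead of 25 and 17. Falls among all 28192 probe sets went down as well, to 1563 and 1302 instead of 2491 and 1993. The mean level of 6 neuronal markers was 12.69 in the left (range 12.67 to 12.71) and 12.81 in the right hemispheres without peptide (12.79 to 12.85). In bulk tissue fewer cells of a type and less RNA per cell cannot be told apart. The part of these shifts in the members' differences was not tested beyond the fit with the control level.

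Mir421 had the largest decrease. It lies on the X chromosome (chrX:103572921-103572996, minus strand) within Ftx, a long noncoding RNA gene of the X-inactivation centre. In the right hemispheres without peptide its log2 levels were 6.50, 6.97, 6.73, 6.89 and 7.12 in replicates 1 to 5. In the left hemispheres of the same animals they were 6.29, 6.07, 5.50, 6.13 and 5.78. The groups did not overlap, and all 5 animals had the lower value on the left, with the smallest gap in replicate 1. The difference was -0.89 ± 0.15 (SE, n = 5 per group, limma adjusted p = 0.0020), 1.85-fold lower. Mir421 lay above the control median in 3 of the 20 arrays. Its cluster neighbour Mir374b (chrX:103573060-103573154) fell by 0.40 ± 0.09 on the log2 scale (adjusted p = 0.0078), at levels from 3.97 to 4.71, all below the control median. The call for Mir374b was lost with the control level in the fit (adjusted p = 0.0652). Ftx itself has no probe set with a single symbol here.

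Mir128-1 encodes the neuron-enriched miR-128 and lies on chromosome 1 (chr1:128202361-128202430, plus strand) within R3hdm1. Its levels in the right hemispheres without peptide were 7.95, 8.24, 8.47, 8.34 and 8.40. In the left they were 7.69, 7.37, 7.29, 7.50 and 7.56. Every left value lay below every right value. The fall was 1.74-fold (-0.80 ± 0.10, adjusted p = 0.00038), the smallest adjusted p among the members in this comparison. The other copy, Mir128-2, lies on chromosome 9 (chr9:112118636-112118711) within Arpp21. It had a difference of -0.20 ± 0.07 without peptide, which did not pass (adjusted p = 0.0721). That call depends on the setting: without replicate 1 the adjusted p was 0.0254, and with all 20 arrays in 1 fit it was 0.0363. Both copies lay above the control median in all 20 arrays.

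Mir9-1, a copy of the miR-9 genes of neural progenitors and neurons, lies on chromosome 3 (chr3:88215598-88215686) within the noncoding Gm3764. Right hemispheres without peptide read 8.90, 9.40, 9.35, 9.22 and 9.35, and left hemispheres 9.03, 8.69, 8.40, 8.66 and 8.45. In 4 of 5 animals the left was lower. In replicate 1 it was higher, so the groups overlapped. The difference was -0.60 ± 0.12 (adjusted p = 0.0059), and the adjusted p was 0.0527 with the control level in the fit. Mir9-3, which encodes the same mature sequence, had a difference of -0.09 ± 0.06 and lay below the control median in all 20 arrays.

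**Figure D1:**
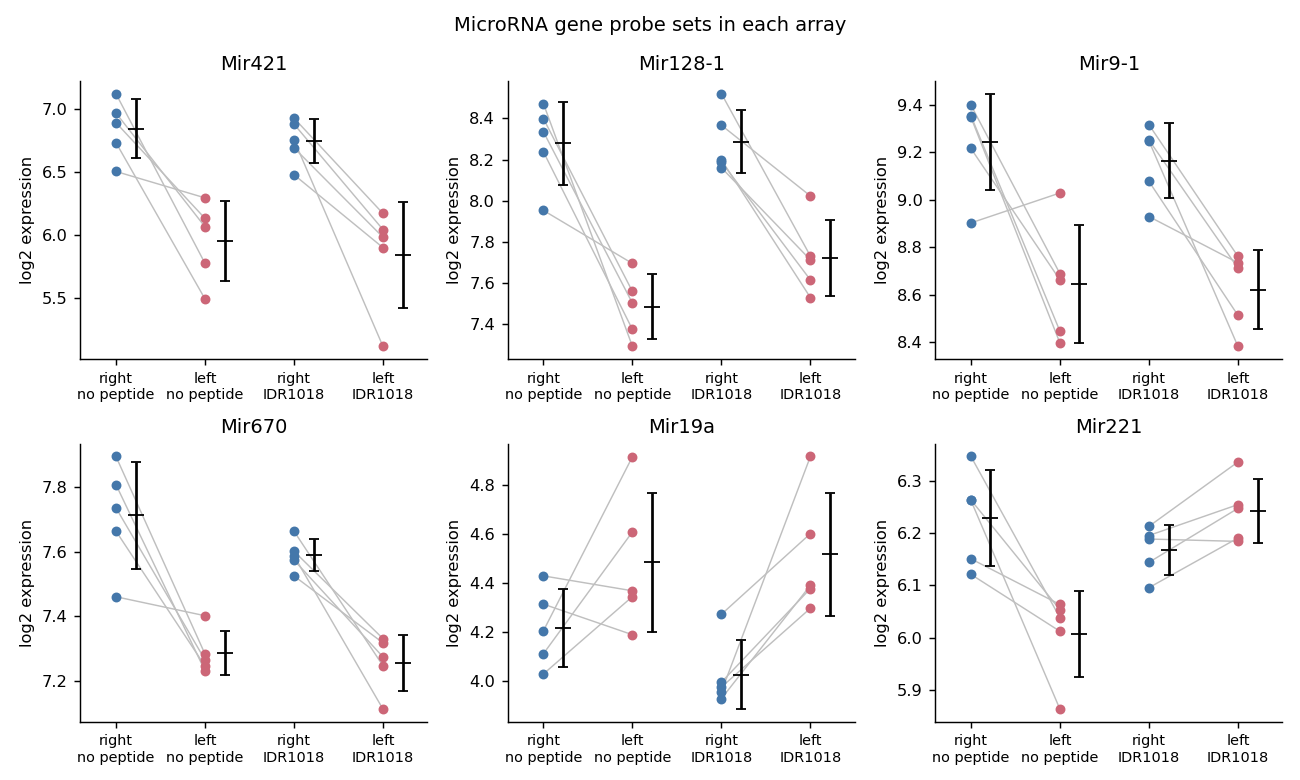
Log2 level of 6 microRNA genes (y axis, a separate scale per panel) in each of the 20 arrays, by hemisphere and peptide on the x axis. Points are arrays, grey lines join the hemispheres of an animal, and black marks give the mean ± SD of 5. Mir421, Mir128-1, Mir9-1 and Mir670 are lower on the left in both sets of animals. Mir19a is higher on the left than on the right in the animals given IDR1018, and Mir221 is lower on the left without peptide.

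Other decreases were smaller. Mir670 (chr2:94261300-94261399, within its host transcript Mir670hg) read 7.46, 7.81, 7.90, 7.66 and 7.74 in the right and 7.40, 7.23, 7.28, 7.25 and 7.27 in the left hemispheres without peptide. The left values are tightly grouped and all below the right ones, and the fall was 0.43 ± 0.07 on the log2 scale (adjusted p = 0.0021). Mir491 (chr4:88122040-88122125, within Focad) fell by 0.45 ± 0.07, with 5.89 to 6.23 in the left and 6.43 to 6.69 in the right. Its values lay below the control median in all 20 arrays, and the left and right groups were apart. Mir149 (chr1:92850378-92850443) fell by 0.38 ± 0.07, from 8.10 to 8.42 in the right to 7.75 to 8.04 in the left. Mir568 (chr16:43640655-43640737) fell by 0.40 ± 0.09 with overlapping groups. Its call was lost without replicate 5 (adjusted p = 0.0519) and with the control level in the fit (0.0688).

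Among microRNAs of glia, Mir219a-2, a copy of the miR-219 genes that oligodendrocytes use, fell by 0.36 ± 0.06 (adjusted p = 0.0026). Its left values ran from 7.97 to 8.16 and its right values from 8.23 to 8.57, with no overlap. The other copy, Mir219a-1, had a difference of 0.01 ± 0.04. Both copies lay above the control median in all 20 arrays. Mir338, also of oligodendrocytes, had a difference of -0.10 ± 0.06. The 4 measured oligodendrocyte markers averaged 10.26 in the left and 10.37 in the right, with ranges that overlap, and none passed the test.

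Calls differed in how much they rested on single animals. The 8 members Mir128-1, Mir149, Mir219a-2, Mir374b, Mir421, Mir491, Mir670 and Mir9-1 passed without peptide whichever animal was left out. Mir137, a regulator of synaptic genes, fell by 0.39 ± 0.11 (adjusted p = 0.0363). This call was lost without replicate 2, 3, 4 or 5 (adjusted p from 0.0694 to 0.134). It was also lost with the animal as a block (0.0775) and with the control level in the fit (0.235). Mir129-1 fell by 0.23 ± 0.07 (adjusted p = 0.0494), a call lost without any 1 of the 5 animals. It was also lost with the animal as a block (0.0577) and with the control level in the fit (0.231). Mir129-2, which encodes the same miR-129-5p, had 0.05 ± 0.06. Mir497, of the miR-15 and miR-16 seed family, fell by 0.18 ± 0.04 and lost its call without replicate 4 (adjusted p = 0.0613). The rest of the 25 fall outside the naming rule for this comparison and were named after their values were seen. They are Mir32, Mir325, Mir693, Mir3068, Mir181b-2, Mir302a, Mir362, Mir680-1, Mir331, Mir378a, Mir107 and Mir185, with falls from 0.14 to 0.35. All of these calls were lost with the control level in the fit (limma adjusted p from 0.0652 to 0.274). Each was also lost without at least 1 of the 5 animals. With the animal as a block the calls of Mir107, Mir185, Mir302a, Mir3068, Mir325, Mir362 and Mir680-1 were lost (adjusted p from 0.0532 to 0.0959). Mir221 is described with the peptide.

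Replicate 1 without peptide stood apart. Its left hemisphere was lower for 105 of the 247 members, and the median member difference was 0.03. In replicates 2 to 5 the left was lower for 161, 169, 189 and 172 members, with medians from -0.06 to -0.11. The control median differed by 0.08 between the hemispheres of replicate 1 and by -0.08 to -0.22 in the others. Without replicate 1, 40 members fell instead of 25. Of all 28192 probe sets, 2126 fell without replicate 1 instead of 2491. For the 9 members called in both sets of animals, the median difference was -0.09 in replicate 1 and between -0.64 and -0.41 in replicates 2 to 5.

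The only member that rose without peptide was Mir18, of the Mir17 cluster on chromosome 14 (chr14:115043671-115044391), a cluster known for promoting cell growth. Left values were 6.09, 6.38, 6.46, 6.16 and 6.18, and right values 5.97, 6.12, 5.65, 5.89 and 5.80. All 5 animals were higher on the left, although the groups overlap and all values lie below the control median. The difference was 0.37 ± 0.09 (adjusted p = 0.0162), and the call was lost without replicate 3, 4 or 5 (adjusted p from 0.0527 to 0.0621). It was also lost with all 20 arrays in 1 fit (0.0636) and with the control level in the fit (0.129).

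The same comparison in animals given IDR1018 used no array of the first, so it is a separate measurement of the hemisphere difference. Here 17 members fell (6.88%, where 7.07% of all probe sets fell) and 4 rose (1.62%, where 7.77% rose). As before, 182 members (73.7%) had a negative difference, against 55.7% of all probe sets, with a median of -0.05. At an unadjusted p below 0.05 there were 52 members, where 28.6% of all probe sets passed. The groups did not overlap for 11 members in the lower direction (6.51% of all probe sets) and 2 in the higher (7.09%).

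Mir421 again had the largest decrease, -0.90 ± 0.17 (adjusted p = 0.0040). Right hemispheres read 6.48, 6.75, 6.88, 6.69 and 6.93 and left hemispheres 5.90, 5.12, 6.04, 5.98 and 6.17. The left value of replicate 2 stands well below the rest. Leaving it out, or any other animal, kept the call, with differences from -0.98 to -0.72.

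Mir128-1 read 8.37, 8.19, 8.52, 8.20 and 8.16 in the right and 8.02, 7.61, 7.73, 7.53 and 7.71 in the left hemispheres with IDR1018. The groups did not overlap, and the fall was 0.57 ± 0.09 (adjusted p = 0.0019). Mir128-2 fell by 0.20 ± 0.06 (adjusted p = 0.0318), the same size as without peptide. It lost its call without replicate 1, 2, 4 or 5 and with the control level in the fit (adjusted p = 0.089). Mir9-1 read 9.25, 9.25, 9.32, 9.08 and 8.93 on the right and 8.71, 8.38, 8.76, 8.51 and 8.73 on the left, with no overlap. Its fall was 0.54 ± 0.09 (adjusted p = 0.0018).

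Mir670 read 7.59, 7.66, 7.53, 7.57 and 7.60 in the right and 7.11, 7.25, 7.32, 7.27 and 7.33 in the left hemispheres. Its fall of 0.33 ± 0.05 had the smallest adjusted p of the members with IDR1018 (0.00065). Mir568 fell by 0.44 ± 0.09 and Mir491 by 0.36 ± 0.09. Both calls rested on single animals, that of Mir568 on replicate 2 (adjusted p = 0.0564 without it) and that of Mir491 on replicates 2, 4 and 5. Mir674 fell by 0.23 ± 0.04 (adjusted p = 0.0031), with 8.63 to 8.69 in the right and 8.33 to 8.52 in the left. The calls of Mir128-1, Mir19a, Mir421, Mir670, Mir674 and Mir9-1 held whichever animal was left out and in all other settings in which they were tested. Mir19a and Mir421 were not tested with dim probe sets left out, since that filter removes them.

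Further decreases with IDR1018 were those of Mir680-2 (0.31 ± 0.08), Mir100 (0.27 ± 0.08) and Mir28a (0.23 ± 0.06). Mir149 fell by 0.22 ± 0.06, Mir129-1 by 0.21 ± 0.05 and Mir497 by 0.18 ± 0.04. Of these calls, that of Mir100 was lost without any 1 of the 5 animals, and each of the others without at least 3 of them. Those of Mir680-2, Mir100, Mir28a and Mir149 were also lost with the control level in the fit (limma adjusted p from 0.0501 to 0.0858). Mir680-3, Mir687 and Mir181c, named after their values were seen, fell by 0.18 to 0.19, calls lost with the animal as a block (adjusted p = 0.0545, 0.0624 and 0.066). Mir680-1, Mir680-2 and Mir680-3 encode the same mature miR-680, on chromosomes 6, X and 12. Without peptide their differences were -0.19 (past the threshold), -0.36 and -0.07, and with IDR1018 -0.15, -0.31 and -0.19, the last 2 past it.

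The increases with IDR1018 centred on the miR-19 family. Mir19a read 4.39, 4.38, 4.30, 4.92 and 4.60 in the left and 3.93, 3.99, 3.97, 3.95 and 4.27 in the right hemispheres. No left value fell within the right range, and the rise was 0.49 ± 0.11 (adjusted p = 0.0104), 1.41-fold. Mir19b-1 rose by 0.31 ± 0.08 and Mir19b-2, on the X chromosome, by 0.14 ± 0.04. Mir367, of an embryonic stem cell cluster, rose by 0.16 ± 0.04. All 4 lay below the control median in all 20 arrays, and the calls of Mir19b-1, Mir19b-2 and Mir367 were each lost without at least 3 of the 5 animals. With the animal as a block Mir19b-2 lost its call (adjusted p = 0.0968). Mir19b-1, Mir367 and Mir19b-2 lost theirs with the control level in the fit (0.0572, 0.0621 and 0.0648).

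Within the Mir17 cluster the members did not move by equal amounts. Without peptide the differences ran from -0.09 for Mir17 to 0.37 for Mir18, with Mir19a at 0.27 ± 0.12 (adjusted p = 0.159), Mir20a at 0.16 and Mir19b-1 at 0.16. With IDR1018 they ran from 0.01 for Mir17 to 0.49 for Mir19a, with Mir18 at 0.45 ± 0.16 (adjusted p = 0.0746). The host transcript Mir17hg had differences of 0.10 (adjusted p = 0.33) and 0.22 (adjusted p = 0.068). No member of the cluster passed in both sets of animals.

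Across both sets, 9 members passed, all lower on the left: Mir421, Mir128-1, Mir9-1, Mir568, Mir491, Mir670, Mir149, Mir129-1 and Mir497. They are 34.6% of the 26 called without peptide and 42.9% of the 21 called with IDR1018. The share of all probe sets that passed in both sets is not given here, so the 9 have no such share beside them. Of the 26, 23 had the same sign in the other set, and of the 21, 20. Among all 247 members, 147 were negative in both sets and 30 positive in both. Across all 247 members the differences in the 2 sets had a Pearson's r of 0.78, a description across genes whose points share the same 20 arrays. Of the 38 members called in either set, 33 were lower and 5 higher.

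**Figure D2:**
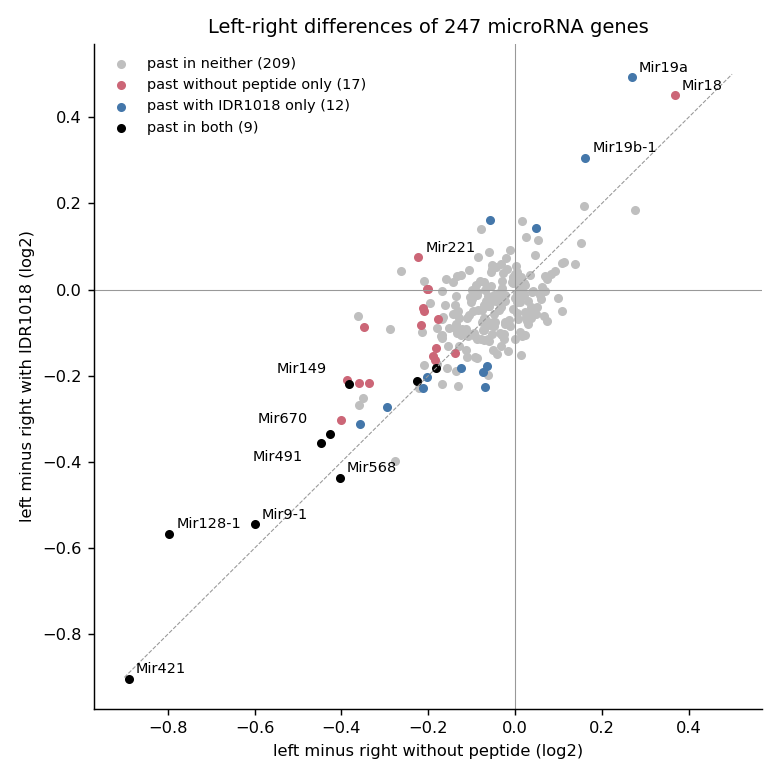
Left minus right difference (log2) of the 247 microRNA genes without peptide (x axis) and with IDR1018 (y axis). Each point is a gene, colours show in which set of animals the adjusted p was below 0.05, and the dashed line marks equal differences. Mir421, Mir128-1 and Mir9-1 lie at the lower left, and Mir18 and Mir19a at the upper right.

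Grouped by known role, the neuronal list of 23 members had the lowest of 5 medians without peptide, but not with IDR1018, where that of glia and endothelium was -0.08. Without peptide 5 of 23 fell (21.7%) and 0 rose, with a median of -0.13. Of all probe sets 8.84% fell and 9.21% rose, with a median of -0.01. With IDR1018 5 fell (21.7%) and 0 rose, with a median of -0.07. Of all probe sets 7.07% fell and 7.77% rose in that set, with a median of -0.01. Mir128-1, Mir9-1, Mir149 and Mir129-1 fell in both sets, Mir137 without peptide and Mir128-2 with IDR1018. Other neuronal members did not pass. Mir124a-2, of the miR-124 that defines neurons, had differences of -0.10 ± 0.05 and -0.03 ± 0.04, and Mir124a-3 -0.07 and -0.09. Mir132 and Mir212, which neuronal activity induces from a shared cluster, had differences of -0.08 and 0.11 without peptide and 0.02 and 0.06 with IDR1018, none past the threshold. All 6 neuronal markers were lower on the left in both sets, but only Tubb3, a neuronal tubulin, passed (-0.39 ± 0.05 and -0.30 ± 0.05). Snap25, a synaptic protein, had differences of -0.09 and -0.02.

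No rise of inflammatory microRNA genes passed the test. Of 17 members on that list, 0 rose and 2 fell without peptide (Mir221 and Mir181b-2), and 0 rose and 1 fell with IDR1018 (Mir181c). The falls make 11.8% and 5.88% of the list, near the 8.84% and 7.07% of all probe sets. Rises made 9.21% and 7.77% of all probe sets. By limma, 6 of the 17 had an unadjusted p below 0.05 without peptide and 2 with IDR1018. Of all probe sets 31.2% and 28.6% had such a p. Mir155, which is induced by LPS in macrophages, read 5.63 to 5.74 in the left and 5.59 to 5.78 in the right hemispheres without peptide, a difference of 0.01 ± 0.04. With IDR1018 it was -0.07 ± 0.06. Mir146, a target of NF-kB, had differences of 0.04 ± 0.05 and -0.01 ± 0.06 at levels near 3.64. Both lay below the control median in all 20 arrays, as did Mir142 (-0.14 ± 0.06 and -0.04 ± 0.04), so a change at such levels may not have been detectable. Mir146b, above the control median in 13 arrays, had differences of -0.06 ± 0.05 and -0.11 ± 0.08. The 6 microglial markers averaged 8.87 in the left and 9.03 in the right hemispheres without peptide, where 3 of them fell and 1 rose, and 8.88 and 8.97 with IDR1018. Of the markers of blood-borne cells, 3 of 4 for lymphocytes, 3 or 4 of 7 for neutrophils and 1 of 3 for monocytes lay below the control median in all arrays of a group.

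Among 16 members tied to hypoxia, stress and cell death, 3 fell without peptide (Mir374b, Mir497 and Mir107, the last named after its values were seen) and 1 with IDR1018 (Mir497). These are 18.8% and 6.25% of the list, beside 8.84% and 7.07% of all probe sets. None rose, where 9.21% and 7.77% of all probe sets did. By limma 3 and 7 had an unadjusted p below 0.05, where 31.2% and 28.6% of all probe sets did. Mir210, which the hypoxia factor Hif1a induces, lay above the control median in all 20 arrays. Its left values without peptide were 9.34, 9.48, 9.32, 9.25 and 9.34 and its right values 9.29, 9.27, 9.34, 9.44 and 9.38. The ranges overlap throughout, and the differences were 0.00 ± 0.05 and 0.04 ± 0.06 in the 2 sets. Mir34a, a p53 target, had differences of -0.06 ± 0.07 and -0.20 ± 0.09 at levels below the control median. Of 11 members of glia and endothelium, 1 fell without peptide (Mir219a-2), 9.09% of the list and near the share of all probe sets, and 0 with IDR1018, where 1 had an unadjusted p below 0.05. Mir126a, the endothelial microRNA, had differences of -0.03 and 0.02 at a mean level of 4.05. The 14 members of the growth clusters had medians of 0.00 and 0.01, with 1 and 3 rises. These are 7.14% and 21.4% of the list, beside 9.21% and 7.77% of all probe sets that rose.

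**Figure D3:**
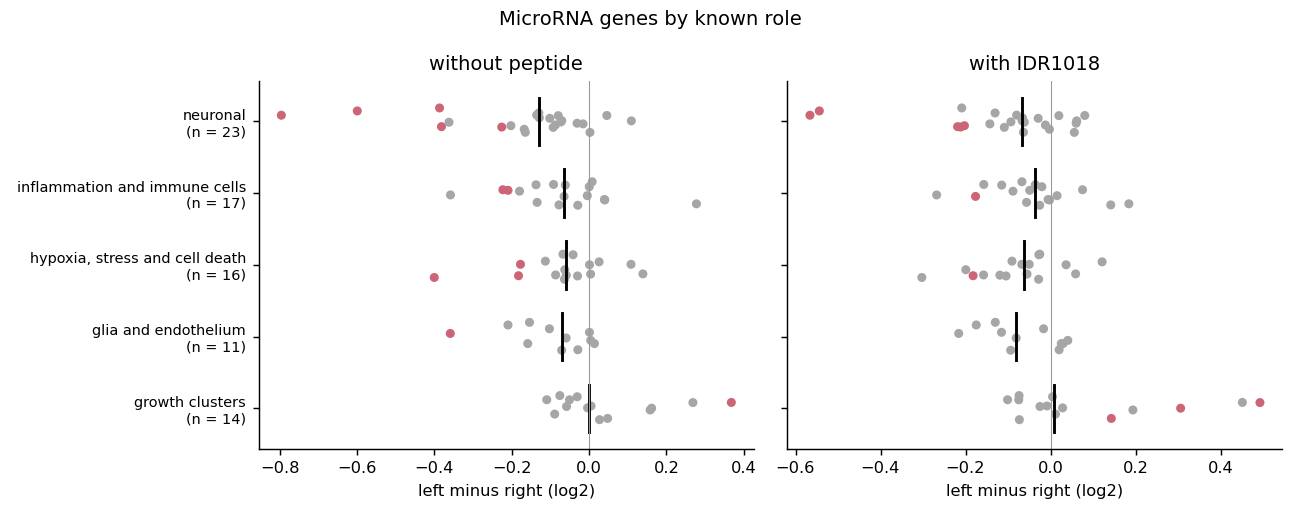
Left minus right difference (log2, x axis) of microRNA genes in 5 lists of known role, without peptide (left panel) and with IDR1018 (right panel). Each point is a gene, red where the adjusted p was below 0.05, vertical black bars are medians, and vertical scatter within a list has no meaning. The neuronal list has its median at -0.13 without peptide, and the points to the right of 0.3 are in the growth clusters.

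Calls were found among bright and dim members. Of the 80 members above the control median in all arrays, 12 fell without peptide and 12 with IDR1018, and 0 rose in either. Of the 146 below it in all arrays, 9 and 4 fell and 1 and 4 rose. Of all probe sets 8.84% and 7.07% fell and 9.21% and 7.77% rose. The left-right difference had Pearson correlations of -0.23 and -0.25 with the mean level over the 247 members, and of 0.02 and -0.03 with hairpin guanine and cytosine content over 210. These are descriptions across genes that share arrays.

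A host gene with a probe set of its own was found for 90 members, 91 pairs with 74 hosts. The differences of microRNA gene and host were nearly unrelated, with Pearson's r of 0.11 without peptide and 0.10 with IDR1018, given as descriptions across pairs that share arrays and in part hosts. Signs matched in 58 and 53 of the 91 pairs. Without peptide the microRNA gene passed in 9 pairs, the host in 29 pairs (24 distinct hosts) and both in 2. With IDR1018 the microRNA gene passed in 6 pairs, the host in 24 (20 distinct hosts) and both in 2. Of all probe sets 8.84% fell and 9.21% rose without peptide, and 7.07% fell and 7.77% rose with IDR1018.

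Mir128-1 differed in size from its host. The host R3hdm1 had a difference of -0.04 ± 0.04 (adjusted p = 0.595) without peptide and 0.04 ± 0.04 with IDR1018, beside -0.80 and -0.57 for the microRNA gene. Arpp21, host of Mir128-2, fell by 0.14 ± 0.04 without peptide (adjusted p = 0.0415) and had -0.03 ± 0.05 with IDR1018. Mir491 and its host Focad fell together in both sets, Focad by 0.23 ± 0.04 and 0.19 ± 0.05. Mir670hg had -0.07 ± 0.05 without peptide and fell by 0.12 ± 0.04 with IDR1018, beside falls of 0.43 and 0.33 for Mir670. Mir100hg fell by 0.26 ± 0.07 without peptide (adjusted p = 0.0186), where Mir100 did not pass (-0.29), whereas with IDR1018 Mir100 fell by 0.27 and Mir100hg had -0.11 ± 0.07 (adjusted p = 0.318). Pairs that passed together were thus Mir491 with Focad in both sets, Mir670 with Mir670hg with IDR1018, and, outside the naming rule, Mir693 with Xpo5 without peptide. For 34 members without a same-strand host, a gene span holds the microRNA gene but a strand was not given. Mir149 lies in such a span, that of Gpc1, which had differences of -0.04 ± 0.03 and -0.05 ± 0.05.

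**Figure D4:**
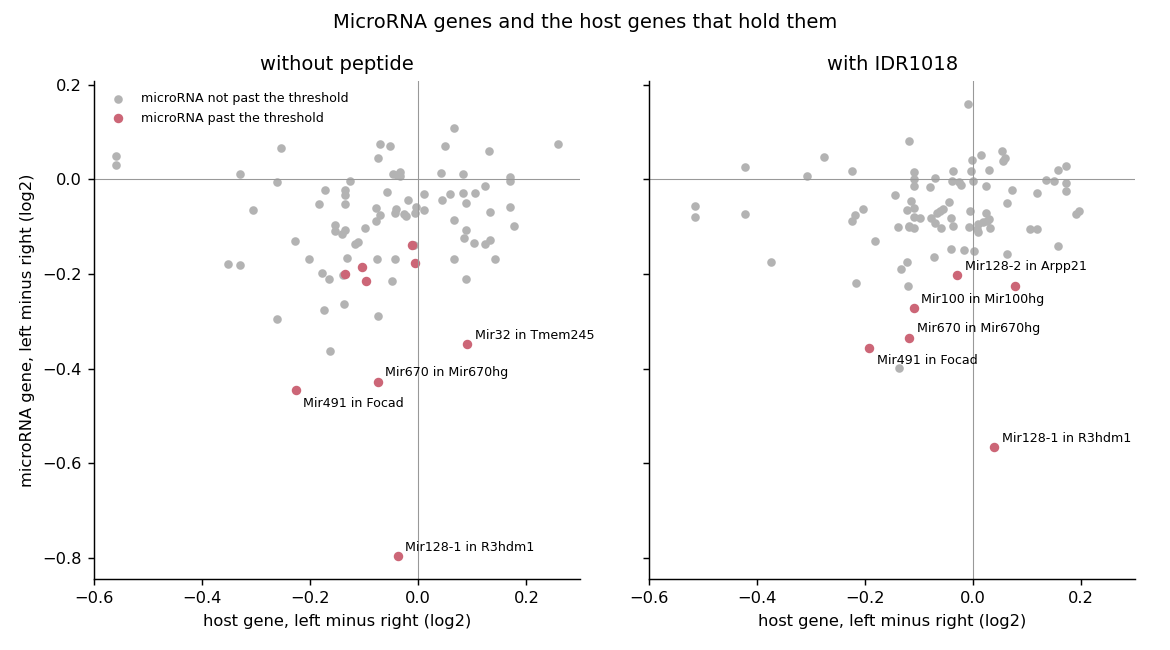
Left minus right difference (log2) of the host gene (x axis) and of the microRNA gene it holds (y axis) for 91 pairs, without peptide (left panel) and with IDR1018 (right panel). Red points are microRNA genes with an adjusted p below 0.05, and some are named with their hosts. Mir128-1 lies far below 0 while its host R3hdm1 lies near 0, and Pearson's r is 0.11 and 0.10.

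Clusters gave few shared calls. The pair Mir421 and Mir374b was the only one of 35 clusters with 2 members past the threshold without peptide, and the Mir17 cluster the only one with 2 with IDR1018. Mir497 fell in both sets while its neighbour Mir195a, which shares its seed, had differences of -0.11 and -0.09 and passed in neither. The seed of miR-32-5p is shared by 6 members, among them Mir32 and Mir367.
miR-32-5p: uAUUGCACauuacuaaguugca
miR-367-3p: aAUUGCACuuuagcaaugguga

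Mir32 fell by 0.35 ± 0.08 without peptide (-0.09 with IDR1018), whereas Mir367 rose by 0.16 with IDR1018 (-0.06 without peptide). Genes with this seed thus passed in opposite directions in the 2 sets, and both genes lay below the control median.

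Other small RNA genes gave other counts. Of the 40 microRNA genes inside Dlk1-Dio3, 30 fell without peptide and 13 with IDR1018, 0 rose, and the medians were -0.46 and -0.27. These falls are 75% and 32.5% of the list, beside 8.84% and 7.07% of all probe sets. Of 54 small nucleolar and Cajal body RNA genes, whose products guide modification of ribosomal and spliceosomal RNA, 12 rose and 1 fell without peptide, and 10 rose and 0 fell with IDR1018. The rises are 22.2% and 18.5% of that list, beside 9.21% and 7.77% of all probe sets. The medians of these small nucleolar and Cajal body RNA genes were 0.12 and 0.11, opposite in sign to those of the members. No test was made of these lists against each other.

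**Figure D5:**
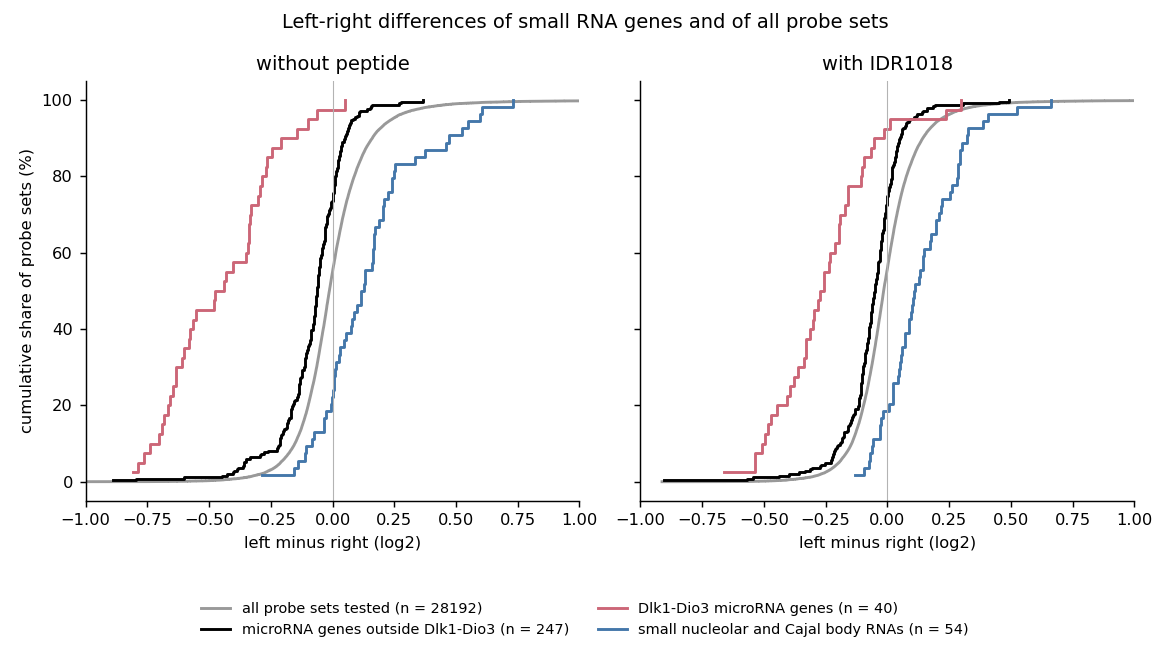
Cumulative share of probe sets (%, y axis) by left minus right difference (log2, x axis, cut at -1 and 1), without peptide (left panel) and with IDR1018 (right panel). The black line holds the 247 microRNA genes outside Dlk1-Dio3, red the 40 inside it, blue 54 small nucleolar and Cajal body RNA genes and grey all 28192 probe sets tested. The black line crosses 0 at 73.7% in both panels, and the grey line at 55.0% and 55.7%.

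Of 28 measured genes that make and use microRNAs, 3 rose (10.7%) and 4 fell (14.3%) without peptide, beside 9.21% and 8.84% of all probe sets. With IDR1018 2 rose (7.14%) and 3 fell (10.7%), beside 7.77% and 7.07%. Dgcr8, which holds the primary transcript for Drosha, fell by 0.32 ± 0.04 (adjusted p = 0.00079) and 0.25 ± 0.05. Dicer1 fell by 0.15 ± 0.04 and 0.14 ± 0.03, and the Argonaute gene Ago1 by 0.15 ± 0.04 and 0.13 ± 0.04. Ago4, another Argonaute gene, rose by 0.19 ± 0.06 and 0.25 ± 0.05. Adar, an enzyme that edits double-stranded RNA, rose by 0.13 ± 0.04 and 0.20 ± 0.04. Ran, which drives nuclear export, rose by 0.16 ± 0.04 without peptide and had 0.13 ± 0.05 with IDR1018.

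The next comparisons ask whether the peptide altered the members. IDR1018 against no peptide gave 0 members past the threshold in the left hemisphere and 0 in the right (limma, n = 5 per group). All probe sets gave 0 (0%) in the left and 1 rise (0.00355%) in the right. At an unadjusted p below 0.05 there were 10 members in the left, where 4.35% of all probe sets passed, and 14 in the right, where 4.32% did. The difference between the left-right differences also gave 0 members, with 9 at an unadjusted p below 0.05 and 2.77% of all probe sets. These comparisons share arrays with the hemisphere comparisons, so their values are given side by side and not as further evidence.

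Mir221 had the smallest p in 2 of these comparisons, in the left hemisphere and for the difference of differences. This microRNA is known from vessel wall and proliferating cells. In the left hemispheres it read 6.04, 6.06, 5.86, 6.05 and 6.01 without peptide and 6.18, 6.25, 6.19, 6.34 and 6.25 with IDR1018. In the right hemispheres it read 6.35, 6.15, 6.26, 6.26 and 6.12 without and 6.19, 6.14, 6.10, 6.21 and 6.20 with the peptide. The left groups were apart, and the right groups overlapped. All values lay below the control median. The peptide difference in the left was 0.24 ± 0.05 (unadjusted p = 0.0003, adjusted p = 0.999). The left-right difference was -0.22 ± 0.05 without peptide (adjusted p = 0.0135) and 0.08 ± 0.04 with IDR1018, and the difference of these, 0.30 ± 0.07, did not pass the adjustment. The call without peptide was lost without replicate 3 or 4 (adjusted p = 0.0515 and 0.0529). Mir222, its neighbour with the same seed, had left-right differences of -0.08 ± 0.05 and 0.14 ± 0.09.

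In the left hemisphere the next higher members by p were Mir186 (0.33 ± 0.08), Mir451a (0.12 ± 0.04), a red blood cell microRNA, Mir335 (0.14 ± 0.05) and Mir132 (0.14 ± 0.05). The lower ones were Mir28a (-0.16 ± 0.05), Mir106a (-0.12 ± 0.06), Mir224 (-0.20 ± 0.09), Mir196a-1 (-0.12 ± 0.06) and Mir365-2 (-0.08 ± 0.04). None passed (adjusted p = 0.999 for each). Only Mir221 and Mir451a of the 247 had groups apart in the higher direction, where 0.277% of all probe sets do so, and 0 were apart in the lower direction (0.287%).

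In the right hemisphere the 5 higher members were Mir192 (0.20 ± 0.06), Mir122 (0.15 ± 0.07), a liver microRNA, Mir6516 (0.08 ± 0.04), Mir423 (0.09 ± 0.05) and Mir181c (0.09 ± 0.05). The 5 lower were Mir367 (-0.16 ± 0.05), Mir106a (-0.16 ± 0.05), Mir499 (-0.27 ± 0.09), Mir302a (-0.17 ± 0.06) and Mir32 (-0.22 ± 0.08). None passed. Only Mir192 had groups apart in the higher direction (0.312% of all probe sets), and 0 were apart in the lower (0.241%). For the difference of differences, Mir221 was followed by Mir367 (0.22 ± 0.06), Mir465 (0.15 ± 0.06), Mir32 (0.26 ± 0.11) and Mir362 (0.20 ± 0.09) on the higher side. On the lower side stood Mir28a (-0.16 ± 0.08), Mir16-1 (-0.16 ± 0.09), Mir717 (-0.13 ± 0.07), Mir361 (-0.16 ± 0.10) and Mir92-2 (-0.10 ± 0.06).

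Of the members called between hemispheres, Mir128-1 read 7.29 to 7.69 in the left without peptide and 7.53 to 8.02 with IDR1018, overlapping ranges. Mir421 had left means of 5.95 ± 0.32 (SD) without and 5.84 ± 0.42 with the peptide, and Mir9-1 8.64 ± 0.25 and 8.62 ± 0.17, differences smaller than the spread between animals.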

How the data were processed

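Total RNA from 20 hemispheres was labelled with biotin and hybridised to 20 arrays. The log2 levels deposited by the authors come from RMA (affy 1.38.1), per the submitters' processing notes, and were used unchanged. Of 34760 probe sets, 6568 whose identifiers precede the unbroken numbering that leads up to the first annotated probe set were treated as controls, leaving 28192. This is read from the identifiers, not from a label. Their median served as a guide to background, since no detection calls are given. The number of arrays limits the precision.

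Each comparison was fitted with limma 3.58.1 (R 4.3.3) on the compared groups' arrays alone (all 20 for the difference of differences), Benjamini-Hochberg adjusted over all 28192, threshold 0.05; steps were tested on simulated data. The specimen numbers in the labels show that same-numbered left and right arrays come from 1 animal. Over all probe sets their deviations from the group means correlated at 0.04 to 0.25 (consensus 0.07). Numbers pair no animals across treatments. Alternatives changed the arrays fitted, scaling, control-level covariate, dim filter, variance model, features adjusted over, block and animals included.

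The members, lists and rules were chosen with earlier results of these data known. Named are up to 10 members with the largest rise and 10 with the largest fall past the threshold, or, with fewer than 3 past it, the 5 higher and 5 lower with the smallest p; members past it in both hemisphere comparisons; a panel of 25 genes, 21 of them members; hosts; and up to 6 biogenesis genes. Mir21a, Mir223, Mir124a-1 and Mir9-2 of the panel are not analysed here.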

Additional observations from a re-analysis of the deposited data

Results flagged for a closer look

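In 236 groups of 5 arrays (59 named members in 4 groups each), 13 held a value far from the other 4, where chance alone flags about 1 in 20. In the left hemispheres without peptide these were Mir129-1 at 7.728 and Mir149 at 8.035, both high in replicate 1, Mir219a-1 at 8.457 and Mir497 at 7.238, both low in replicate 4, and Mir221 at 5.863, low in replicate 3. In the right hemispheres without peptide Mir335 was low at 5.805 in replicate 1. In the left hemispheres with IDR1018 Mir421 was low at 5.119 and Mir219a-1 low at 8.535, both in replicate 2. Mir499 was high at 5.89 in replicate 5, and Mir9-3 high at 6.422 in replicate 1. In the right hemispheres with IDR1018 Mir100 was high at 5.93 in replicate 3, Mir19a at 4.271 in replicate 5 and Mir19b-1 at 5.144 in replicate 2. Without replicate 2 the left-right call of Mir421 with IDR1018 held.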

How the results depend on the processing

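Every count of members called was recomputed with all 20 arrays in 1 fit, with arrays centred on their medians, with the control probe set level as a covariate, with dim probe sets left out, with a variance trend, with 1 probe set per gene, with the replicate block and without each animal. Without peptide the 25 falls became 8 with the control level. They ranged from 10 (without replicate 5) to 40 (without replicate 1) when an animal was left out, with 16 without replicate 2 or 3 and 13 without replicate 4. Of all probe sets 2491 fell, 1563 with the control level, 1247 without replicate 5 and 2126 without replicate 1. The 1 rise became 0 with all 20 arrays in 1 fit and with dim probe sets left out, and ranged from 0 to 1 without an animal. Mir18, the member that rose, also lost its call with the control level (limma adjusted p = 0.129). With IDR1018 the 17 falls became 9 with the control level. They ranged from 6 (without replicate 2) to 19 (without replicate 3), with 8 without replicate 4 and 10 without replicate 5. Of all probe sets 1993 fell, 1302 with the control level, 958 without replicate 2 and 1119 without replicate 3. The 4 rises became 2 with the control level, 0 without dim probe sets and 2 with the variance trend, and ranged from 1 to 3 without an animal. With the replicate block, which pairs the hemispheres of an animal, falls and rises were 20 and 1 without peptide and 17 and 4 with IDR1018. Behind these counts, 9 falls were lost and 4 others gained without peptide, and 3 falls and 1 rise were lost and as many gained with IDR1018. All counts for the peptide comparisons and for the difference of differences were 0 in all settings tried. Of 2236 recomputed values of named members, 0 changed direction past a threshold; 80 lost and 5 gained a call and 103 moved by more than their spread; the cause was not tested. With 5 arrays per group and members mostly below the control median, small changes may have been missed.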
